A study of Homo sapiens with 9 samples.

Results

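Transfer RNA synthetases and translation initiation factors were described in LNCaP cells, a single androgen-responsive human prostate cancer line established from a lymph node metastasis. The members were 49 genes fixed by name: 19 cytosolic synthetases, 3 scaffold proteins of the multisynthetase complex, 7 mitochondrial synthetases and 20 initiation factors. A member counted as measured where a probe set of the Affymetrix array was annotated to its symbol alone, and its brightest probe set, the one with the highest mean over the 9 arrays, was used. By this rule 42 of the 49 were measured, among 11963 genes in all: 16 cytosolic synthetases, AIMP1 of the scaffold, all 7 mitochondrial synthetases and 18 initiation factors. The other 7 (FARSB, MARS1, QARS1, AIMP2, EEF1E1, EIF4A1 and EIF4A2) are not analysed here except in the promoter search. All 42 had group means above 52.4, the lowest median of an array.

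All cells were starved of androgen for 2 days in RPMI with 10% charcoal-stripped serum. They then received 20 µM gedunin with 1 nM R1881 (here the gedunin arrays), 1 nM R1881 with DMSO (the R1881-label arrays), or ethanol and DMSO (the vehicle-label arrays). Gedunin is a plant limonoid known to impair HSP90 function, and R1881 is a synthetic androgen. Each group had 3 arrays marked as biological replicates, and no group received gedunin without androgen. Treatment lasted 24 h by the labels, but titles of the R1881-label arrays give 6 h, so a difference in duration cannot be told apart from gedunin where that group is used.

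The labels R1881 and vehicle were contradicted by androgen-responsive genes. KLK3, which encodes prostate-specific antigen and is induced by androgen, averaged 7215 ± 384 on the gedunin arrays, 1341 ± 104 on the R1881-label arrays and 11839 ± 513 on the vehicle-label arrays (intensity, mean ± SD, n = 3 each). FKBP5, another androgen-induced gene, was likewise lowest on the R1881-label arrays (45.1 ± 3.15, against 1815 ± 147 on the vehicle-label arrays). The gedunin arrays differed from both other groups in these genes. Against the R1881 and vehicle labels the log2 fold change was 2.43 and -0.715 for KLK3, and 1.42 and -3.91 for FKBP5. A difference in androgen response therefore cannot be told apart from gedunin in either comparison. Every direction below holds for groups as labelled, and gedunin is set against both of the other groups, which share the same 3 gedunin arrays. Of 6 measured luminal markers all lay above the lowest array median, but their summed intensity moved with the groups: 13665 to 14712 on the gedunin arrays, 4973 to 5413 on the R1881-label arrays and 25554 to 27503 on the vehicle-label arrays, and their part in the results was not tested. KLK3, KLK2, KRT8 and KRT18 were highest under the vehicle label, but FOLH1 averaged 376 on the gedunin arrays, 708 on the R1881-label arrays and 268 on the vehicle-label arrays, and EPCAM was also lowest under the vehicle label. Of 5 fibroblast, 4 leukocyte and 2 basal epithelial markers, 3, 1 and 0 lay above that median. Their summed intensities had overlapping ranges on the gedunin and vehicle-label arrays. On the R1881-label arrays the fibroblast and leukocyte ranges overlapped with both. The basal epithelial sum there, 50.7 to 54.3, lay below 55.2 to 58.6 with gedunin and 55.7 to 59.4 under the vehicle label.

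Aminoacyl-tRNA synthetases join each amino acid to its tRNA, with mostly separate genes for the enzymes of the cytosol and of mitochondria. Initiation factors bring the initiator tRNA, the mRNA cap and the ribosomal subunits together. When eIF2 is phosphorylated by a stress kinase, its exchange factor eIF2B is inhibited and most initiation slows, while the mRNA of the transcription factor ATF4 is translated better. ATF4 is known to drive genes of amino acid synthesis and transport and many cytosolic synthetase genes through a C/EBP-ATF response element.

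With gedunin, cytosolic synthetase genes were higher and mitochondrial ones lower than on the R1881-label arrays, while initiation factors split. Of 16 measured cytosolic synthetases 10 rose and 1 fell (median log2 fold change 0.31), of 7 mitochondrial synthetases 0 rose and 6 fell (median -0.34), and of 18 initiation factors 6 rose and 3 fell (median 0.07). Over all genes 27.4% passed the test, 14.0% higher and 13.4% lower, with a median of -0.01. At an unadjusted p under 0.05, also 0 mitochondrial synthetases rose. A call is an adjusted p under 0.05 in limma, a linear model with moderated variance, with Benjamini-Hochberg adjustment over all 11963 genes. Against the vehicle-label arrays, 7 of 16 cytosolic synthetases rose with gedunin and 2 fell (median 0.15), 0 of 7 mitochondrial synthetases rose and 2 fell (median -0.17), and 3 of 18 initiation factors rose and 4 fell (median -0.07). At an unadjusted p under 0.05, 0 mitochondrial synthetases rose and 4 fell there. Of all genes 26.9% passed, 15.0% higher and 11.9% lower, with a median of -0.01, so the initiation factors called higher are at about that background. The shares over all genes include dim genes, while every measured member lay above the lowest array median. Shares over genes of like brightness were not computed. Changes of at least 1.5-fold were called for 7 members higher and 1 lower against the R1881 label (7.15% of all genes in either direction) and for 4 higher and 2 lower against the vehicle label (7.02%).

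**Figure D1:**
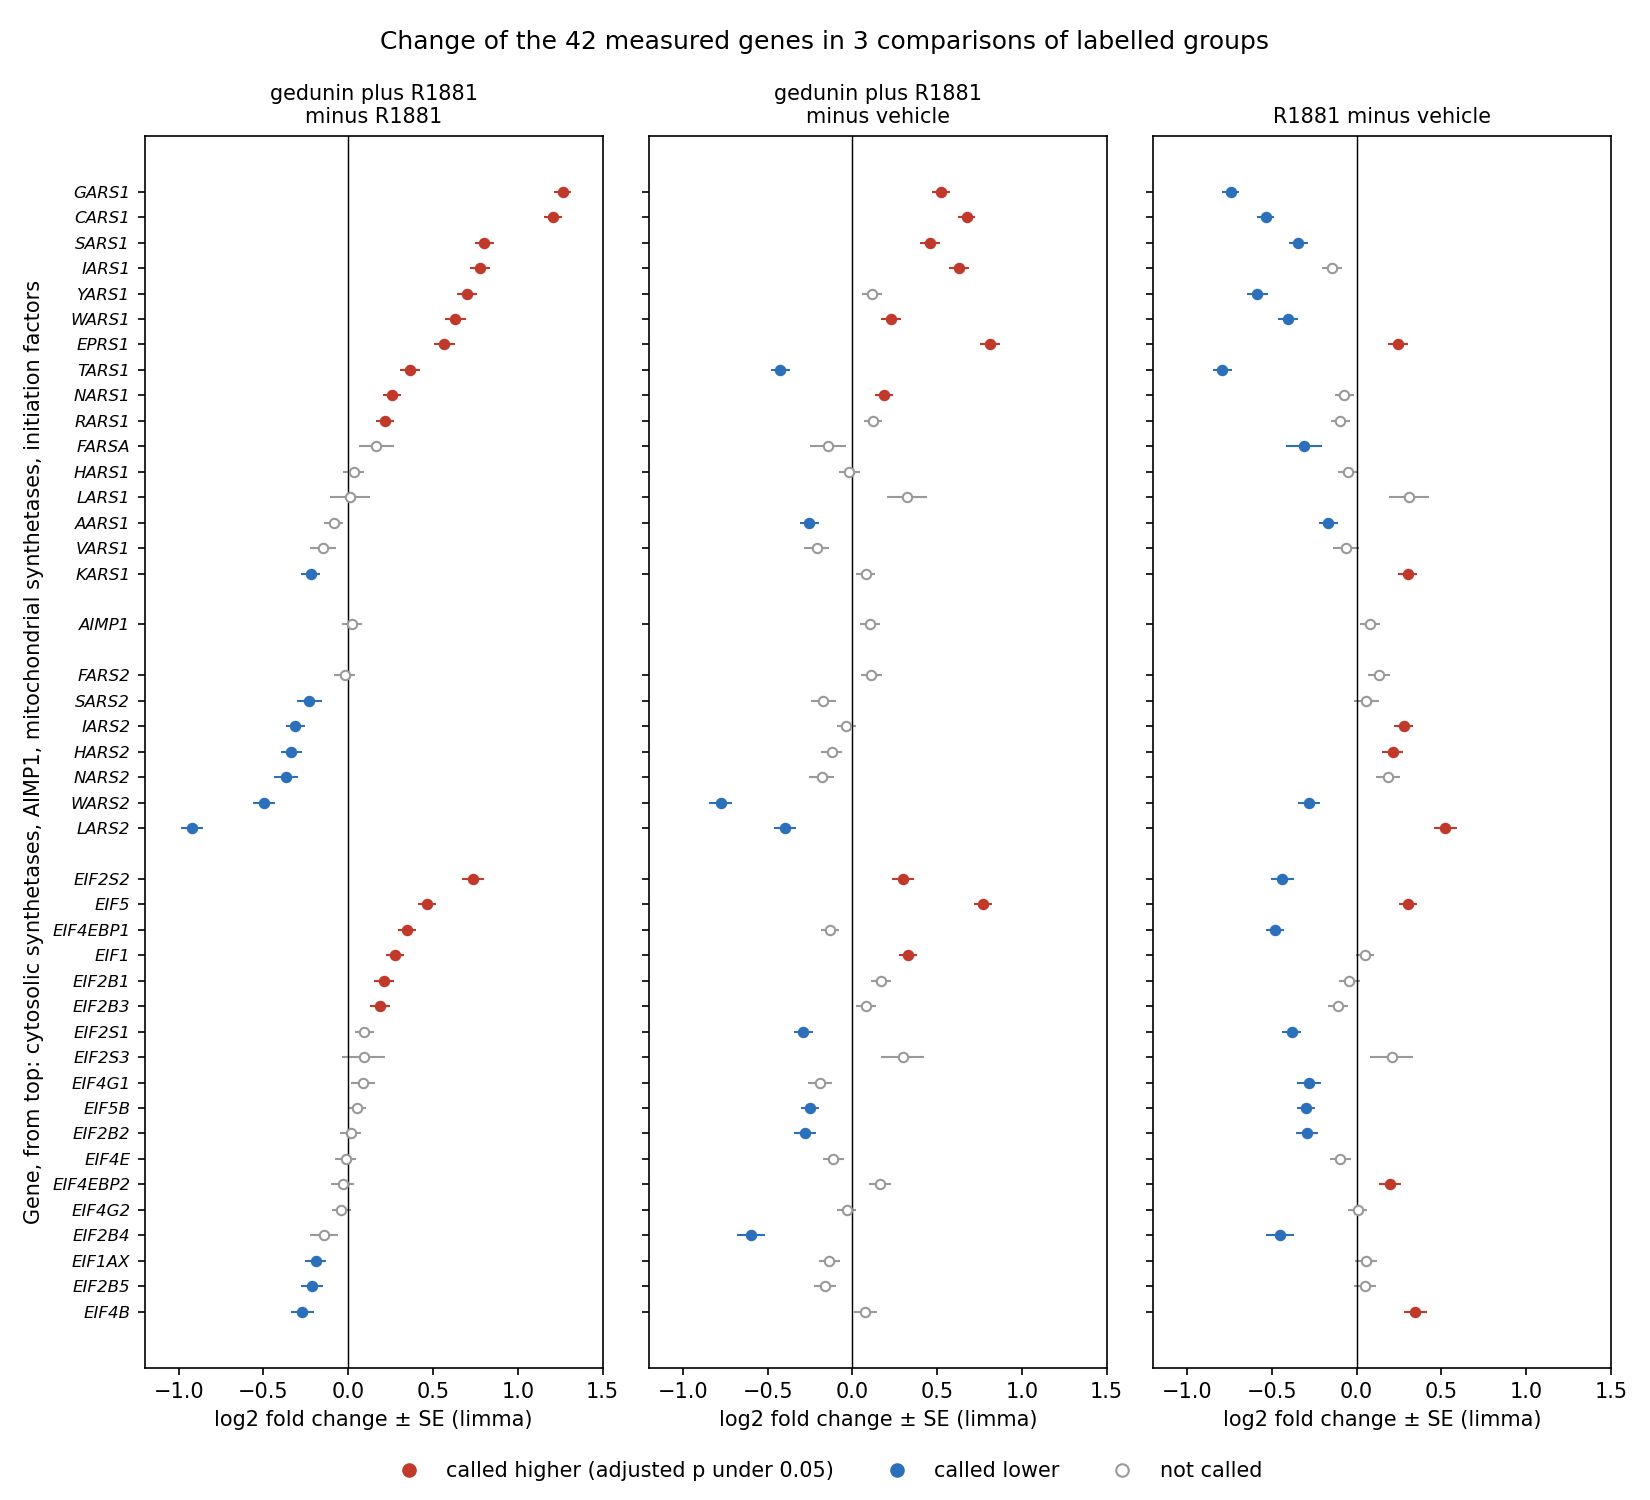
Log2 fold change with its standard error (x axis) for each of the 42 measured genes (y axis, by class) in the 3 comparisons of labelled groups, with n = 3 arrays per group. Filled points passed an adjusted p of 0.05, red for higher and blue for lower. In the left panel 10 of 16 cytosolic synthetases lie to the right of 0 as called and 6 of 7 mitochondrial ones to the left.

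Against the R1881 label, the cytosolic synthetases that rose most were those for glycine and cysteine, while against the vehicle label the rise was largest for EPRS1, followed by CARS1, IARS1 and GARS1. GARS1, glycyl-tRNA synthetase, whose gene serves both cytosol and mitochondria, measured 2084, 2073 and 1955 on the gedunin arrays, 842, 853 and 847 on the R1881-label arrays and 1409, 1416 and 1428 on the vehicle-label arrays. The 3 groups did not overlap, with gedunin highest and the R1881 label lowest. Relative to the R1881-label arrays the rise was 2.40-fold (log2 fold change 1.26 ± 0.05, SE, adjusted p = 1.26e-09), and relative to the vehicle-label arrays 1.44-fold (0.52 ± 0.05, adjusted p = 5.02e-06). CARS1, cysteinyl-tRNA synthetase, measured 1189, 1216 and 1192 on the gedunin arrays, 521, 518 and 516 on the R1881-label arrays and 723, 783 and 751 on the vehicle-label arrays. Its groups were ordered and separated in the same way. CARS1 rose 2.31-fold over the R1881-label arrays (1.21 ± 0.05, adjusted p = 2.24e-09) and 1.59-fold over the vehicle-label arrays (0.67 ± 0.05, adjusted p = 5.55e-07). A second, dimmer CARS1 probe set gave 1.13 and 0.61 on the log2 scale.

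IARS1, SARS1 and EPRS1 also rose against both groups. IARS1, isoleucyl-tRNA synthetase, measured 1814, 1770.4 and 1684 on the gedunin arrays, 1039.5, 1065 and 971 on the R1881-label arrays and 1093, 1177 and 1134 on the vehicle-label arrays. Gedunin stood apart, and the other 2 groups lay close together without overlapping. The log2 fold change of IARS1 was 0.78 ± 0.06 against the R1881 label and 0.63 ± 0.06 against the vehicle label. SARS1, seryl-tRNA synthetase, measured 1457, 1384 and 1428 on the gedunin arrays, 779, 852 and 819 on the R1881-label arrays and 1045, 1072 and 993 on the vehicle-label arrays. It was highest with gedunin and lowest under the R1881 label, with no overlap, and rose by 0.80 ± 0.06 and 0.46 ± 0.06. EPRS1, which joins both glutamate and proline to their tRNAs, measured 1444, 1358 and 1311 on the gedunin arrays, 953, 899 and 924 on the R1881-label arrays and 734, 819 and 792 on the vehicle-label arrays. Unlike the synthetases above, EPRS1 was lowest on the vehicle-label arrays, so its rise was 0.57 ± 0.06 over the R1881 label and 0.81 ± 0.06 over the vehicle label. Each of these 6 rises had an adjusted p of at most 4.27e-05, and the other EPRS1 probe sets gave 0.64 and 0.53 against the R1881 label.

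WARS1, YARS1 and TARS1 rose against the R1881 label, while against the vehicle label 1 rose, 1 did not pass and 1 fell. WARS1, tryptophanyl-tRNA synthetase, which interferon also induces, measured 434, 411 and 455 on the gedunin arrays, 286, 262 and 291 on the R1881-label arrays and 369.8, 369.8 and 369.8 on the vehicle-label arrays. The 3 vehicle-label values are equal as deposited, so their spread is not a measure of replicate error. WARS1 rose by 0.63 ± 0.06 over the R1881 label (adjusted p = 3.44e-06) and by 0.23 ± 0.06 over the vehicle label (adjusted p = 0.0126), and the second call was lost without gedunin replicate 3 (adjusted p = 0.059). YARS1, tyrosyl-tRNA synthetase, measured 892, 906 and 924 on the gedunin arrays, 568, 529.7 and 579 on the R1881-label arrays and 813, 896 and 808 on the vehicle-label arrays. Gedunin and vehicle-label values overlapped, and the R1881-label values lay below both. Its log2 fold change was 0.70 ± 0.06 against the R1881 label (adjusted p = 1.37e-06) and 0.11 ± 0.06 against the vehicle label (adjusted p = 0.211). TARS1, threonyl-tRNA synthetase, measured 1356, 1329 and 1329 on the gedunin arrays, 1018, 1047 and 1048 on the R1881-label arrays and 1671, 1858 and 1865 on the vehicle-label arrays. Gedunin lay between the other groups without overlap. TARS1 was the only measured member called in opposite directions, higher by 0.37 ± 0.06 than the R1881 label (adjusted p = 0.000278) and lower than the vehicle label at -0.42 ± 0.06 (adjusted p = 8.33e-05).

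**Figure D2:**
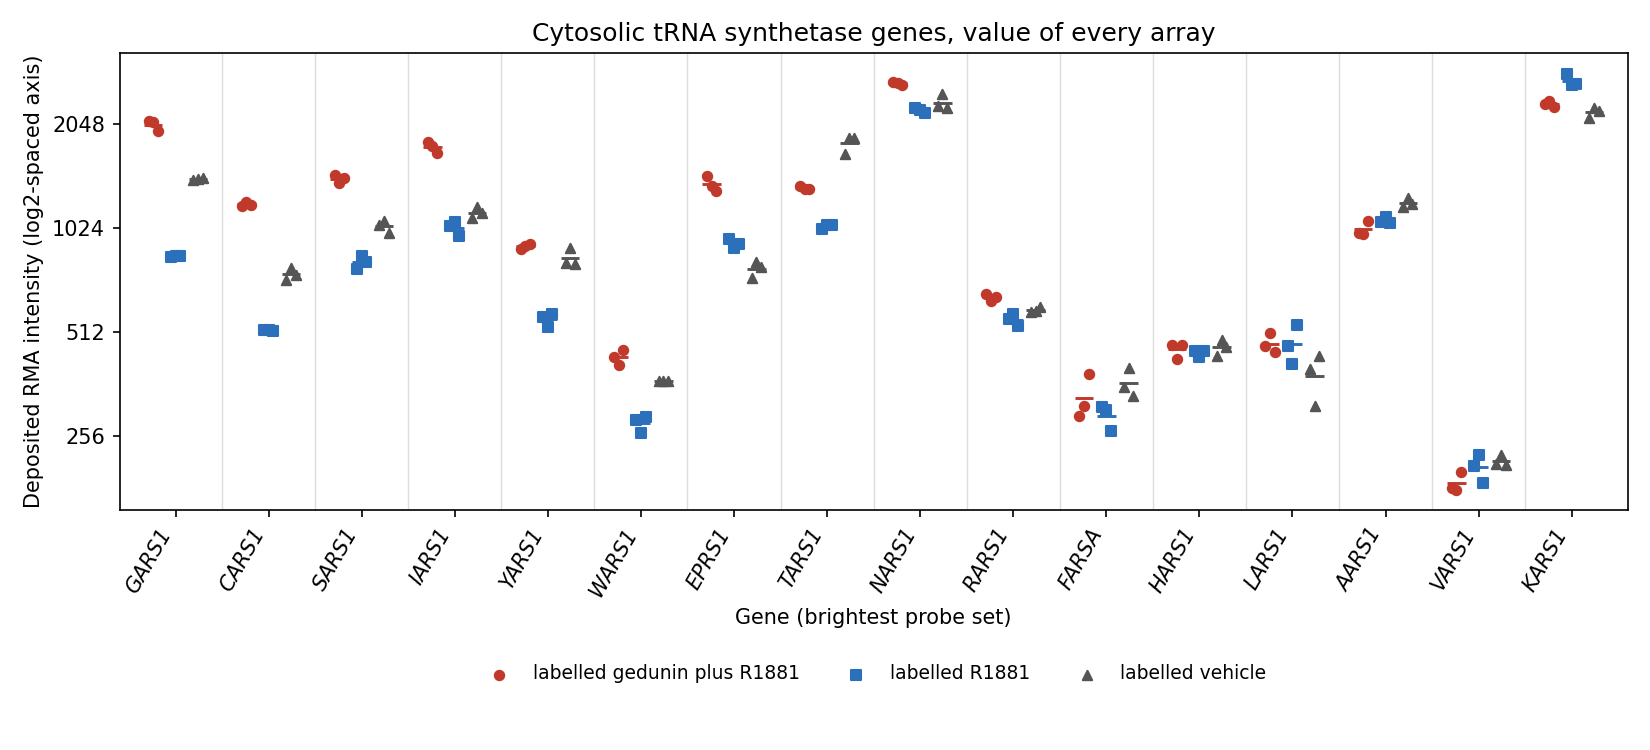
Deposited intensity (y axis, log2-spaced) of 16 cytosolic synthetase genes (x axis, ordered by the change between gedunin and the R1881 label) on every array, with a bar at each group mean (n = 3). Red circles are the gedunin arrays, blue squares the R1881-label arrays and grey triangles the vehicle-label arrays. GARS1 on the left ranged from 1955 to 2084 with gedunin, and KARS1 on the right was lower with gedunin than under the R1881 label.

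The remaining cytosolic synthetases changed little or not at all. NARS1, asparaginyl-tRNA synthetase, averaged 2679 ± 21.5 with gedunin, 2239 ± 35.7 under the R1881 label and 2357 ± 126 under the vehicle label (intensity, SD, n = 3 each), and RARS1, the arginyl enzyme, 646 ± 14.2, 556 ± 22.3 and 593 ± 12.2 in the same order. NARS1 rose by 0.26 ± 0.06 and 0.19 ± 0.06 against the R1881 and vehicle labels (adjusted p = 0.00286 and 0.0231), and RARS1 by 0.22 ± 0.05 against the R1881 label (adjusted p = 0.008). Both calls against the R1881 label were lost when quantile normalization was repeated (adjusted p = 0.0666 and 0.0724). NARS1 also lost its call against the vehicle label without gedunin replicate 1 or 2 or vehicle replicate 1 or 3 (adjusted p between 0.0607 and 0.0966). KARS1, lysyl-tRNA synthetase, whose gene also serves both compartments, was the cytosolic member that fell against the R1881 label (-0.22 ± 0.06, adjusted p = 0.00814). It did not pass against the vehicle label (0.08 ± 0.06, adjusted p = 0.359). A dimmer KARS1 probe set was not called against the R1881 label (-0.15 ± 0.06, adjusted p = 0.112 over all probe sets).

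AARS1, alanyl-tRNA synthetase, measured 990.3, 981 and 1073 on the gedunin arrays, 1068, 1105 and 1056 on the R1881-label arrays and 1181, 1247 and 1201 on the vehicle-label arrays. Gedunin and R1881-label values overlapped and vehicle-label values were higher. AARS1 was at -0.09 ± 0.06 against the R1881 label (adjusted p = 0.33, and -0.19 with adjusted p = 0.0124 when quantile normalization was repeated) and fell against the vehicle label (-0.25 ± 0.06, adjusted p = 0.00399). FARSA, the catalytic subunit of the phenylalanyl enzyme (0.17 ± 0.10 and -0.14 ± 0.10 against the R1881 and vehicle labels), HARS1, the histidyl enzyme (0.03 ± 0.06 and -0.02 ± 0.06), LARS1, the leucyl enzyme (0.01 ± 0.12 and 0.32 ± 0.12), and VARS1, the valyl enzyme (-0.15 ± 0.07 and -0.21 ± 0.07), did not pass in either gedunin comparison. Near the threshold, VARS1 was called lower than the R1881 label without R1881 replicate 3 (adjusted p = 0.0345), and lower than the vehicle label without gedunin replicate 3 or R1881 replicate 2 or 3 (adjusted p between 0.0245 and 0.0402). Against the vehicle label VARS1 passed under 5 further alternatives as well, with its probe sets averaged (-0.24, adjusted p = 0.00716), dim genes removed, eBayes with trend and robust prior, median centring and only the 2 groups fitted (0.0302 to 0.0492), and its dimmer probe set passed there (-0.28 ± 0.09, adjusted p = 0.0372 over all probe sets). LARS1 was called higher than the vehicle label without R1881 replicate 3 or vehicle replicate 3 (adjusted p = 0.0421 and 0.0224), and also with dim genes removed, with trend and robust prior, and with the replicate block (0.0418 to 0.0492). AIMP1, a scaffold protein that holds several synthetases in a complex, averaged 575 ± 28.2 with gedunin, 565 ± 7.04 under the R1881 label and 535 ± 27.8 under the vehicle label (intensity, SD, n = 3 each). Its brightest probe set was not called, but a dimmer one was higher with gedunin by 0.33 ± 0.08 and 0.37 ± 0.08 (SE, adjusted p = 0.00949 and 0.00457 over all probe sets).

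Promoters are shown for the cytosolic synthetases because 10 of the 16 measured genes rose against the R1881 label and one short motif recurred in the class. Since that recurrence was a reason for the choice, the shares below describe the class and are no test. Promoters were 300 bases, 250 before to 50 after each RefSeq transcription start (GRCh38.p14). They were searched on both strands for TGATGNAA, the core of the C/EBP-ATF response element, as one motif with no other motif searched. The letters occurred in 3.62% of all 35116 promoters, and in at least 1 promoter of 4.46% of all 27305 genes. Of 16 cytosolic synthetases with an entry 7 held it (43.8%): AARS1, CARS1, GARS1, IARS1, MARS1, NARS1 and TARS1. No entry of the 7 mitochondrial synthetases, the 3 scaffold proteins or the 18 initiation factors with one held it. LARS1, VARS1, YARS1, EIF2S2 and EIF4EBP1 were not searched. The genes with an entry include members that were not measured, MARS1 among them, so these sets are not the measured ones.

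The windows around the match are given 5′ to 3′ on the gene's strand for the 6 measured genes, with the match in capitals. Positions count from 1 at the first transcribed base, and the base before it is -1. The GARS1 window is chr7:30594785-30594864 on the plus strand, with the match at -33 to -26, and the IARS1 window chr9:92293691-92293770 on the minus strand, with the match at -13 to -6. The CARS1 window, chr11:3057406-3057485 on the minus strand, has its match across the start at -2 to 6. In TARS1 (chr5:33440907-33440986, plus strand) and NARS1 (chr18:57621812-57621882, minus strand) the match lies just after the start, at 3 to 10 and 15 to 22. In AARS1 (chr16:70289674-70289753, minus strand) it lies farther upstream, at -187 to -180. Read on the motif's strand the match is TGATGCAA in 5 of these genes and TGATGAAA in GARS1.
GARS1: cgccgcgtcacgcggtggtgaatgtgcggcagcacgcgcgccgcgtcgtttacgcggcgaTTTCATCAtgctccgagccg
CARS1: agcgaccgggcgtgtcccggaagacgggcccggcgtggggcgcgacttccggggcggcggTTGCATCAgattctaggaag
IARS1: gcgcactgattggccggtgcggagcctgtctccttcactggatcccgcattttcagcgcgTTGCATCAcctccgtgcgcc
TARS1: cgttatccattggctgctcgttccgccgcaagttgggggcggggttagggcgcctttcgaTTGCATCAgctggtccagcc
NARS1: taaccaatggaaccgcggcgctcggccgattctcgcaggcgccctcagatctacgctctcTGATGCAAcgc
AARS1: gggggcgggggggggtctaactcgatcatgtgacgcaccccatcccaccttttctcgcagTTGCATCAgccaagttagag
Among the 6 measured genes with the motif, 5 rose and 0 fell with gedunin against the R1881 label, AARS1 being the exception, and 4 rose and 2 fell against the vehicle label. Of the 7 measured genes whose entries lack it (EPRS1, FARSA, HARS1, KARS1, RARS1, SARS1 and WARS1), 4 rose and 1 fell, and 3 rose and 0 fell. Over all genes 14.0% were higher and 13.4% lower against the R1881 label, and 15.0% and 11.9% against the vehicle label. A difference between genes with and without the motif was not tested. A match is a description of letters in this window and no test of binding, and SARS1, WARS1 and EPRS1 rose without one.

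With gedunin 6 of 7 mitochondrial synthetases were called lower than under the R1881 label, but only 2 of 7 lower than under the vehicle label. LARS2, the mitochondrial leucyl enzyme, measured 125, 114 and 118 on the gedunin arrays, 212, 231 and 235 on the R1881-label arrays and 158, 166 and 147 on the vehicle-label arrays. The groups did not overlap, with gedunin lowest and the R1881 label highest. LARS2 was 1.90-fold lower than under the R1881 label (-0.92 ± 0.07, adjusted p = 2.11e-07) and 1.32-fold lower than under the vehicle label (-0.40 ± 0.07, adjusted p = 0.000436). A dimmer LARS2 probe set gave -0.32 and -0.26, a smaller fall in the first comparison. WARS2, the mitochondrial tryptophanyl enzyme, measured 75.0, 69.9 and 74.1 on the gedunin arrays, 106, 97.7 and 105 on the R1881-label arrays and 118, 135 and 123 on the vehicle-label arrays. It was lowest with gedunin and, unlike LARS2, highest under the vehicle label. WARS2 fell against both, at -0.50 ± 0.07 (adjusted p = 5.72e-05) and -0.78 ± 0.07 (adjusted p = 1.04e-06).

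The other mitochondrial synthetases fell less or were not called. NARS2 for asparagine (-0.37 ± 0.07), HARS2, annotated as the mitochondrial histidyl enzyme (-0.34 ± 0.06), IARS2 for isoleucine (-0.31 ± 0.06) and SARS2 for serine (-0.23 ± 0.07) fell against the R1881 label. Their adjusted p values were 0.00157, 0.00089, 0.000893 and 0.0316 in this order. IARS2 measured 475, 474 and 472 on the gedunin arrays, 554, 618 and 595 on the R1881-label arrays and 469, 497 and 493 on the vehicle-label arrays, so the gedunin values lay within or near the vehicle-label range and below all R1881-label values. SARS2 lost its call without gedunin replicate 1 or 3 or any 1 of the R1881 replicates (adjusted p between 0.057 and 0.15). None of these 4 passed against the vehicle label, where their log2 fold changes lay between -0.18 and -0.04. Without vehicle replicate 1 NARS2 passed there (adjusted p = 0.014), and without gedunin replicate 2 SARS2 did (adjusted p = 0.0226). FARS2, the mitochondrial phenylalanyl enzyme, passed in neither gedunin comparison (-0.02 ± 0.06 and 0.11 ± 0.06).

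For 7 amino acids both enzymes were measured, and their changes were set side by side as a comparison chosen after the values were seen. Against the R1881 label the cytosolic gene had the more positive log2 fold change in 7 of 7 pairs, and against the vehicle label in 6 of 7. Between the R1881 and vehicle labels, without gedunin, it had the more positive change in 0 of 7, with differences from -0.44 to -0.12. Tryptophan gave the largest difference between the changes, 1.13 against the R1881 label (0.63 for WARS1 and -0.50 for WARS2) and 1.00 against the vehicle label (0.23 and -0.78). For isoleucine the differences were 1.09 and 0.67, for serine 1.03 and 0.63, for leucine 0.93 and 0.72, for asparagine 0.62 and 0.37, and for histidine 0.37 and 0.10. Phenylalanine, with FARSA and FARS2, gave 0.19 and -0.25, within the spread of the arrays. In an exact two-sided permutation test of the log2 difference per array, each pair but phenylalanine reached p = 0.1 in both gedunin comparisons. This is the smallest p that 3 arrays against 3 allow, and 0.124 after Benjamini-Hochberg adjustment over 21 tests. Between the R1881 and vehicle labels 5 of 7 pairs, phenylalanine included, reached it too, with the cytosolic change the more negative. Any pair without overlap gives this p, so the test adds nothing to the separation of the arrays.

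**Figure D3:**
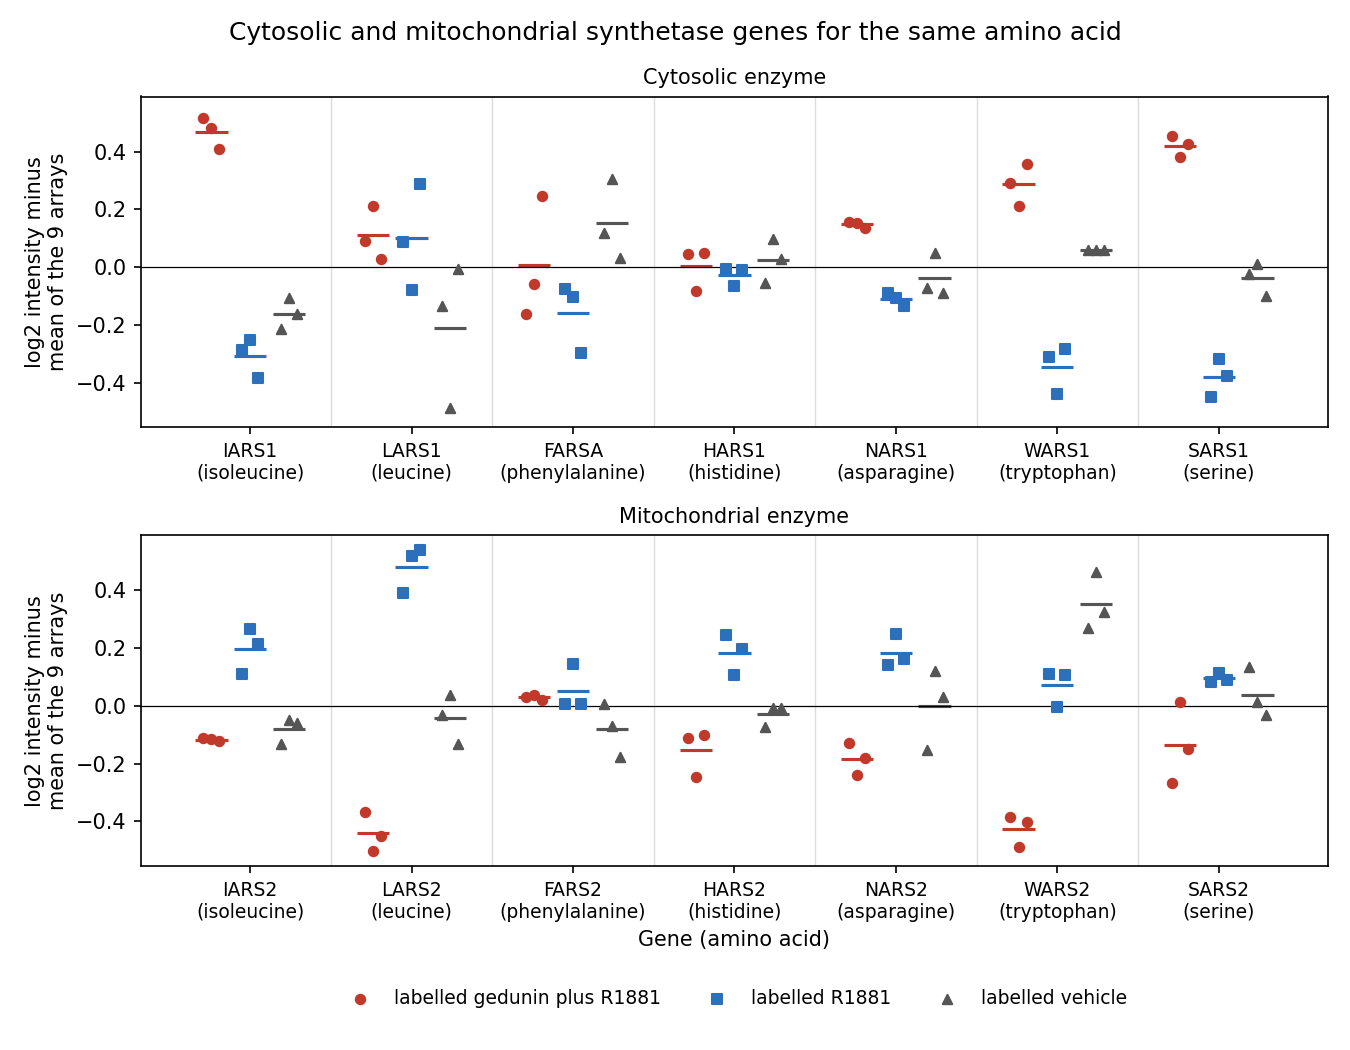
Log2 intensity of each array minus the mean of the gene over 9 arrays (y axis) for the cytosolic (top) and mitochondrial (bottom) synthetase genes of 7 amino acids (x axis). Points are arrays, bars are group means (n = 3), red circles gedunin, blue squares the R1881 label and grey triangles the vehicle label. WARS1, IARS1 and SARS1 are highest with gedunin, and WARS2 and LARS2 are lowest.

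Among the initiation factors, the subunits of eIF2, which carries the initiator tRNA to the ribosome, did not move together. EIF2S2, the beta subunit, measured 2528, 2425 and 2350.0 on the gedunin arrays, 1426, 1564 and 1406 on the R1881-label arrays and 1918, 2127 and 1907 on the vehicle-label arrays. Gedunin was highest and the R1881 label lowest, without overlap. EIF2S2 rose by 0.73 ± 0.07 over the R1881 label (adjusted p = 1.74e-06) and by 0.30 ± 0.07 over the vehicle label (adjusted p = 0.00372). The second call was lost when its probe sets were averaged (0.17, adjusted p = 0.0909), since a dimmer probe set gave 0.19 and 0.05. EIF2S1, the alpha subunit and the target of the stress kinases, was at 0.10 ± 0.06 against the R1881 label (adjusted p = 0.289) and fell against the vehicle label (-0.29 ± 0.06, adjusted p = 0.00199). EIF2S3, the gamma subunit, passed in neither (0.09 ± 0.13 and 0.30 ± 0.13). Its R1881 replicate 2, at 660.4, lay apart from the other 2, and without that array EIF2S3 was called higher than the vehicle label (0.30, adjusted p = 0.0175), as it was with only the 2 groups fitted (0.0233).

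The 5 subunits of eIF2B, the exchange factor that reloads eIF2 with GTP, changed in different directions. EIF2B4, the delta subunit, measured 256, 276 and 328 on the gedunin arrays, 328, 301 and 317 on the R1881-label arrays and 424, 455 and 418 on the vehicle-label arrays. Vehicle-label values were above all others, and the gedunin values spread more than the rest. EIF2B4 fell against the vehicle label (-0.60 ± 0.08, adjusted p = 9.65e-05) and was at -0.14 ± 0.08 against the R1881 label (adjusted p = 0.251), where it passed without gedunin replicate 3 (-0.24, adjusted p = 0.0231). EIF2B2, the beta subunit, fell against the vehicle label (-0.28 ± 0.06, adjusted p = 0.00443) and was at 0.01 against the R1881 label. Against the R1881 label EIF2B1, the alpha subunit, and EIF2B3, the gamma subunit, rose by 0.21 ± 0.06 and 0.19 ± 0.06, while EIF2B5, the catalytic epsilon subunit, fell (-0.21 ± 0.06). These 3 small changes had adjusted p values of 0.0187, 0.0286 and 0.0245. Each was lost when a single array was left out: EIF2B1 without gedunin replicate 2 or R1881 replicate 3 (0.068 and 0.063), EIF2B3 without gedunin replicate 2 or 3 or R1881 replicate 3 (0.0836 to 0.0954), and EIF2B5 without gedunin replicate 1 or 2 or R1881 replicate 2 or 3 (0.0622 to 0.111). Against the vehicle label EIF2B1 was at 0.17 ± 0.06 and EIF2B5 at -0.16 ± 0.06 without a call. There EIF2B1 passed without R1881 replicate 3 or vehicle replicate 2 (adjusted p = 0.0425 and 0.0396) and under 5 other alternatives (0.0249 to 0.048), and EIF2B5 without gedunin replicate 3 (0.0288).

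Of the factors that act at the start codon, EIF5 changed most. EIF5, which makes eIF2 hydrolyse its GTP, measured 1823, 1888 and 1893 on the gedunin arrays, 1388, 1307 and 1362 on the R1881-label arrays and 1116, 1104 and 1066 on the vehicle-label arrays. The groups did not overlap, with gedunin highest and the vehicle label lowest. EIF5 rose by 0.77 ± 0.05 over the vehicle label (1.71-fold, adjusted p = 1.71e-07) and by 0.47 ± 0.05 over the R1881 label (1.38-fold, adjusted p = 1.61e-05), and of its 4 other probe sets all but the dimmest rose in both comparisons. EIF1, which guards start codon choice, measured 7993, 7676 and 7453 on the gedunin arrays, 6359, 6286 and 6441 on the R1881-label arrays and 6100.4, 6270.4 and 6063 on the vehicle-label arrays. It rose by 0.28 ± 0.05 and 0.33 ± 0.05 against the R1881 and vehicle labels (adjusted p = 0.00119 and 0.000338). EIF1AX, which acts with EIF1 on the scanning ribosome, fell by 0.19 on the log2 scale against the R1881 label (adjusted p = 0.0384), but lost that call without gedunin replicate 1 or 2, R1881 replicate 2 or 3 or vehicle replicate 1 (adjusted p between 0.052 and 0.127). EIF5B, which joins the ribosomal subunits, fell against the vehicle label (-0.25 ± 0.05, adjusted p = 0.00275) and was at 0.05 ± 0.05 against the R1881 label. With its 6 probe sets averaged, that fall did not pass (-0.14, adjusted p = 0.0735).

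Of 6 measured genes of the cap-binding group 1 rose and 1 fell with gedunin against the R1881 label. Against the vehicle label 0 passed in limma, while 1 was higher and 2 were lower at an unadjusted p under 0.05. Over all genes 14.0% were higher and 13.4% lower against the R1881 label, and 15.0% and 11.9% against the vehicle label. The counts against the R1881 label are at about that background. EIF4EBP1, which binds and blocks the cap-binding protein and is a known ATF4 target, measured 415, 411 and 429.8 on the gedunin arrays, 323, 329 and 335 on the R1881-label arrays and 439, 471 and 466 on the vehicle-label arrays. The R1881-label values lay below both other groups. EIF4EBP1 rose by 0.35 ± 0.05 over the R1881 label (adjusted p = 0.00024) and was at -0.13 ± 0.05 against the vehicle label (adjusted p = 0.0937), where it passed with repeated quantile normalization and a pseudocount of 50 (0.0392 and 0.0167). Its relative EIF4EBP2 passed in neither gedunin comparison (-0.03 ± 0.07 and 0.16 ± 0.07), but did against the vehicle label without vehicle replicate 1 (0.22, adjusted p = 0.0351). EIF4B, which assists the helicase of the complex, fell against the R1881 label (-0.27 ± 0.07, adjusted p = 0.00838) and was at 0.08 ± 0.07 against the vehicle label. EIF4E, the cap-binding protein itself (-0.02 ± 0.06 and -0.11 ± 0.06), EIF4G1, the scaffold (0.09 ± 0.07 and -0.19 ± 0.07), and EIF4G2, a related protein that does not bind EIF4E (-0.04 ± 0.06 and -0.03 ± 0.06), did not pass in either. EIF4G1 was close to the threshold against the vehicle label (adjusted p = 0.0596) and passed without vehicle replicate 2 (adjusted p = 0.016). EIF4G1 also passed there under 6 other alternatives, among them its probe sets averaged (-0.26, adjusted p = 0.000778), repeated quantile normalization (-0.22, 0.038) and the replicate block (0.0295). Its dimmer probe set fell against the vehicle label (-0.33 ± 0.05, adjusted p = 0.000467 over all probe sets).

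**Figure D4:**
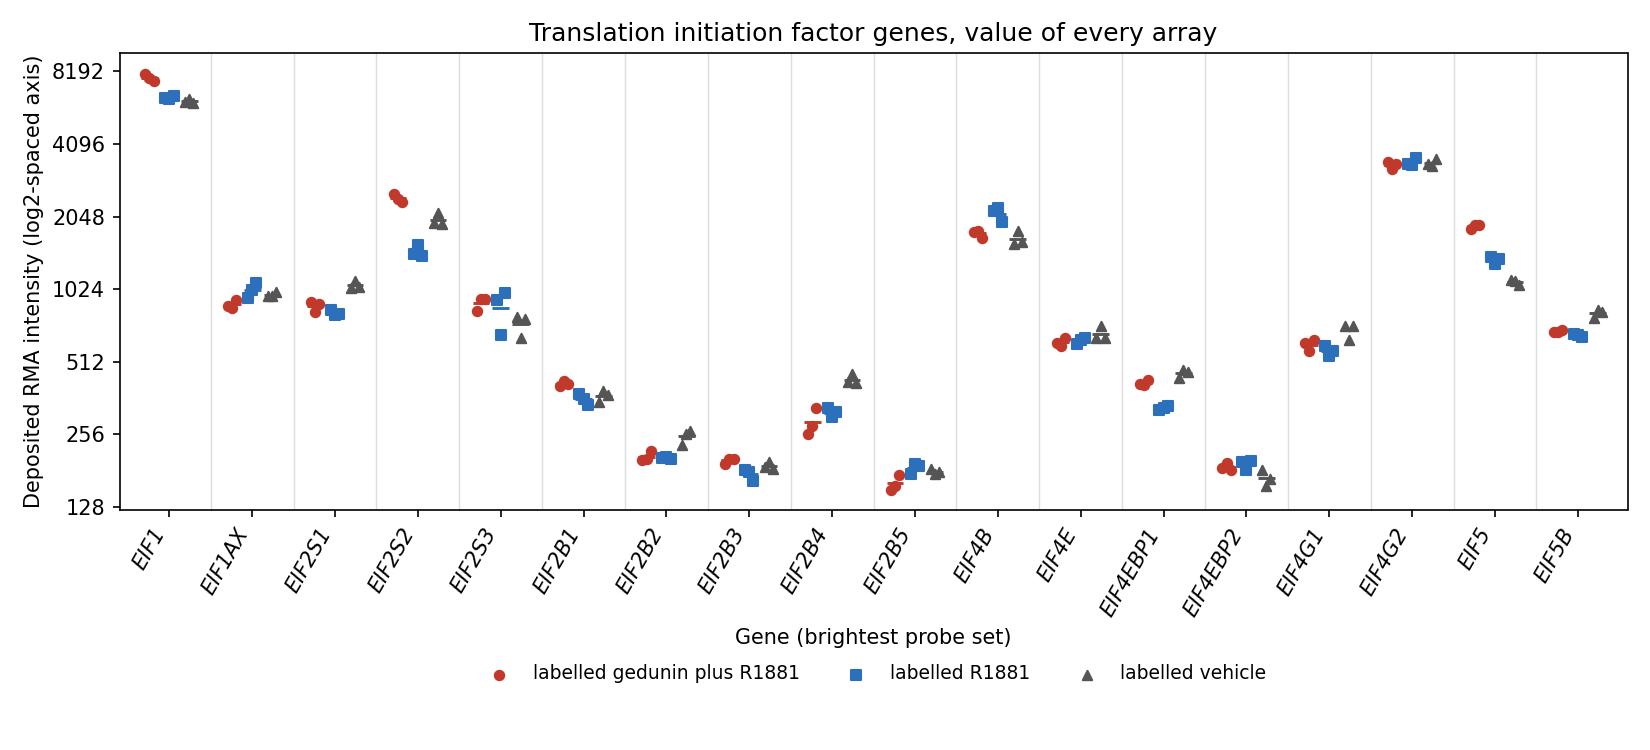
Deposited intensity (y axis, log2-spaced) of 18 initiation factor genes (x axis) on every array, with a bar at each group mean (n = 3). Red circles are the gedunin arrays, blue squares the R1881-label arrays and grey triangles the vehicle-label arrays. EIF2S2 and EIF5 are highest with gedunin, EIF2B4 is highest under the vehicle label, and R1881 replicate 2 of EIF2S3 lies apart at 660.4.

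Between the R1881 and vehicle labels, without gedunin, 8 of 16 cytosolic synthetases were lower on the R1881-label arrays and 2 higher (median -0.16), 1 of 7 mitochondrial synthetases was lower and 3 were higher (median 0.18), and 7 of 18 initiation factors were lower and 3 higher (median -0.07). Over all genes 30.3% passed, 16.7% higher and 13.6% lower, with a median of 0.00. Of all members 0 were higher and 3 lower by at least 1.5-fold (8.46% of all genes in either direction): TARS1, GARS1 and YARS1. TARS1 (-0.79 ± 0.06, adjusted p = 2.07e-07), GARS1 (-0.74 ± 0.05), YARS1 (-0.58 ± 0.06), CARS1 (-0.54 ± 0.05), WARS1 (-0.41 ± 0.06), SARS1 (-0.34 ± 0.06), FARSA (-0.31 ± 0.10) and AARS1 (-0.17 ± 0.06) were lower. KARS1 (0.30 ± 0.06, adjusted p = 0.000899) and EPRS1 (0.24 ± 0.06) were higher. The dimmer KARS1 probe set was not called (0.11 ± 0.06, adjusted p = 0.234 over all probe sets). The calls of AARS1 and FARSA were small: leaving out any R1881 or vehicle replicate, or gedunin replicate 1, ended that of AARS1 (adjusted p between 0.05 and 0.109), and leaving out gedunin replicate 2, R1881 replicate 2 or 3 or vehicle replicate 1 or 2 ended that of FARSA (between 0.0517 and 0.162). The replicate block ended both (0.0616 for AARS1 and 0.0502 for FARSA), as did repeated quantile normalization, which gave -0.08 for AARS1 (adjusted p = 0.252) and -0.28 for FARSA (0.0502). A pseudocount of 50 also ended that of FARSA (0.0672). LARS1 was at 0.31 ± 0.12 (adjusted p = 0.065) and passed without R1881 replicate 2 or vehicle replicate 3 (adjusted p = 0.031 and 0.0229), with dim genes removed, with repeated quantile normalization and with the replicate block (0.044 to 0.0485).

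Of the mitochondrial enzymes LARS2 (0.52 ± 0.07, adjusted p = 3.62e-05), IARS2 (0.28 ± 0.06) and HARS2 (0.21 ± 0.06) were higher under the R1881 label and WARS2 (-0.28 ± 0.07) was lower. HARS2 lost its call without R1881 replicate 1 or vehicle replicate 1 (adjusted p = 0.0728 and 0.0688), NARS2 gained one without vehicle replicate 2 (0.24, adjusted p = 0.025) and with repeated quantile normalization (0.21, 0.0295), and the dimmer LARS2 probe set was at 0.06. EIF4EBP1 (-0.48 ± 0.05), EIF2B4 (-0.45 ± 0.08), EIF2S2 (-0.44 ± 0.07), EIF2S1 (-0.38 ± 0.06), EIF5B (-0.30 ± 0.05), EIF2B2 (-0.29 ± 0.06) and EIF4G1 (-0.28 ± 0.07) were lower under the R1881 label, and EIF4B (0.35 ± 0.07), EIF5 (0.30 ± 0.05) and EIF4EBP2 (0.20 ± 0.07) were higher. EIF4EBP2 lost its call without gedunin replicate 1 or 3, R1881 replicate 1 or 3 or vehicle replicate 2 or 3 (adjusted p between 0.0503 and 0.144), and EIF2S3 gained one without R1881 replicate 2 (0.38, adjusted p = 0.00765). In the order of group means, 8 cytosolic synthetases (CARS1, GARS1, IARS1, NARS1, RARS1, SARS1, WARS1 and YARS1) ran from gedunin through the vehicle label down to the R1881 label. For 5 mitochondrial synthetases (IARS2, LARS2, HARS2, NARS2 and SARS2) the order was the R1881 label, the vehicle label, then gedunin. Neighbours in these orders did not differ beyond the test for IARS1, NARS1, RARS1, NARS2 and SARS2 between the R1881 and vehicle labels, for YARS1 and RARS1 between gedunin and the vehicle label, and for IARS2, HARS2, NARS2 and SARS2 between the vehicle label and gedunin.

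Genes of the same pathway outside the member list were read from further lists. ATF4 averaged 4563 ± 254 on the gedunin arrays, 2189 ± 87.4 on the R1881-label arrays and 2785 ± 67.0 on the vehicle-label arrays (intensity, SD, n = 3 each). Of 9 measured genes listed for ATF4, with ATF4 itself counted, 9 rose against the R1881 label (median 1.22), where 14.0% of all genes were higher. Against the vehicle label 7 rose and 1, VLDLR, fell (median 0.73), where 15.0% of all genes were higher and 11.9% lower. Between the R1881 and vehicle labels, without gedunin, 0 of the 9 were higher and 6 lower under the R1881 label (median -0.35). There 16.7% of all genes were higher and 13.6% lower. VLDLR averaged 42.9 on the gedunin arrays and 33.7 on the R1881-label arrays, below the lowest array median. ASNS, asparagine synthetase, a classical ATF4 target, had log2 fold changes of 1.33 ± 0.06 and 1.25 ± 0.06, larger than those of NARS1, which uses its product. Of 4 measured eIF2 kinases and phosphatase subunits, EIF2AK3, the kinase PERK of the endoplasmic reticulum, rose against the R1881 label (0.93 ± 0.09, adjusted p = 3.39e-06) and was at -0.18 ± 0.09 against the vehicle label (adjusted p = 0.182). Without gedunin, EIF2AK3 was lower under the R1881 label than under the vehicle label (-1.10 ± 0.09, adjusted p = 5.24e-07). The brightest probe sets of EIF2AK1, EIF2AK2 and PPP1R15A passed in neither gedunin comparison, and PPP1R15A lay below the lowest array median. Dimmer probe sets of EIF2AK1 fell against the R1881 label (-0.38 ± 0.09, adjusted p = 0.00769 over all probe sets) and of EIF2AK2 rose against the vehicle label (0.40 ± 0.10, adjusted p = 0.0112).

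Other genes of the translation apparatus were mixed. Over all genes 14.0% were higher and 13.4% lower against the R1881 label, and 15.0% and 11.9% against the vehicle label. Of 6 other synthetase and amidotransferase genes, all for mitochondria, 0 rose and 1 fell against the R1881 label (CARS2, -0.23 ± 0.06), and 0 passed against the vehicle label in limma, also at an unadjusted p under 0.05. A list of 23 further initiation factors and related genes also counted EIF5A, EIF5A2, ABCE1 and PABPC1. Of these 23, 3 rose and 5 fell against the R1881 label, with a range of -0.31 to 0.36, and 6 rose and 4 fell against the vehicle label. EIF1B, a close paralog of EIF1, moved opposite to it against the R1881 label (-0.31 ± 0.07) and rose over the vehicle label (0.62 ± 0.07). Of 12 genes listed as elongation and release factors, with the mitochondrial initiation factor MTIF2 counted among them, 2 rose and 3 fell against the R1881 label. Against the vehicle label 4 of them rose, MTIF2 included, and 2 fell. GSPT1, a release factor, had the order of TARS1: higher with gedunin than under the R1881 label (0.38 ± 0.07, adjusted p = 0.000829) and lower than under the vehicle label (-0.29 ± 0.07, adjusted p = 0.00609).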

How the data were processed

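RNA from 9 LNCaP cultures was measured on Affymetrix arrays, 3 per group by the titles. Each value the authors deposited is a probe set's intensity on a linear scale, between 8.63 and 20189. RMA is the method that the submitters' processing notes name, and its software is not given in the sources used here. The quantile normalization that RMA normally includes would hide a change in total RNA, and in bulk samples fewer cells and less RNA per cell cannot be told apart. The number of arrays limits the precision.

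The analysis used log2 of these intensities. GEO's annotation gives 1 symbol for 19064 of 22277 probe sets, several for 1043 and none for 2108, and only the first kind was used. Each gene took its brightest probe set, and 21 of 42 measured members had several. No member had probe sets called in both directions in a comparison. The tests came from limma 3.58.1 (R 4.3.3), with 1 coefficient per group over all 9 arrays and eBayes without trend (prior degrees of freedom 6.38). All were two-sided, errors of fold changes are standard errors, and p-values measure the spread between these cultures. On simulated data with 50 genes changed per fold size among 11963, calls recovered 98% of 1.5-fold changes and 32% of 1.2-fold changes between gedunin and the R1881 label, with 9 false calls. Against the vehicle label they recovered 98% and 40%, with 7. Far fewer genes changed in the simulation than passed in the data (27.4% and 26.9% of all genes in these comparisons). The adjusted threshold was therefore stricter in the simulation, and its recovery and false calls are not estimates for the data.

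The members, lists, tests and alternatives were chosen with earlier results of these data known. Every member may be named, and the value of every array is given for the 13 members called with at least 1.5-fold in 1 comparison and for a few others. Promoter sequences are from RefSeq (GRCh38.p14), and 44 of 49 members matched by symbol. The alternatives were the mean of a gene's probe sets, all probe sets tested apart, removal of dim genes, eBayes with trend and robust prior, quantile normalization repeated, median centring, a pseudocount of 50, only the 2 groups compared, a replicate block, and each array left out in turn.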

Additional observations from a re-analysis of the deposited data

How the results depend on the processing

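No called log2 fold change of a member reversed under any of the 18 alternatives. Of 68 calls of the 42 measured members over the 3 comparisons, 53 were kept under every alternative and 15 were lost under at least 1, of which 11 were lost when a single array was left out. Of the 58 values not called, 20 gained a call under at least 1 alternative, 13 of them under an alternative other than leaving out an array. The numbers of members called stayed within 1.5 times: leaving out each array in turn gave 14 to 16 higher and 7 to 10 lower between gedunin and the R1881 label, 9 to 12 and 8 to 10 between gedunin and the vehicle label, and 6 to 10 and 14 to 16 between the R1881 and vehicle labels. Among the counts by class with gedunin and the R1881 label, initiation factors lower than under the R1881 label were 1 in place of 3 without gedunin replicate 1 or 2 or without R1881 replicate 2 or 3. Cytosolic synthetases lower there were 2 in place of 1 without R1881 replicate 3 and when quantile normalization was repeated. With the replicate number as a block, 16 members were called higher and 10 lower, 11 and 9, and 9 and 14, in the 3 comparisons in the same order. Deviations of arrays with the same number correlated between -0.11 and 0.13 over 9 pairs, so the numbers were not taken to pair the arrays. Small changes are limited by 3 arrays per group.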

Other observations

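AARS1 holds the motif TGATGCAA in its promoter entry, and its array values with gedunin lay between 981 and 1073, against 1056 to 1105 under the R1881 label. The mitochondrial elongation factor genes TUFM (-0.31 ± 0.05) and TSFM (-0.25 ± 0.06) fell with gedunin against the R1881 label, as did 6 of 7 mitochondrial synthetases, with adjusted p values of 0.000589 and 0.00509 in limma. MTIF2, a mitochondrial initiation factor, did not pass there (-0.11 ± 0.07) and rose over the vehicle label (0.36 ± 0.07, adjusted p = 0.00102).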
